A study of Hordeum vulgare with 12 samples.

Results

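The genes described here are those whose transcripts were read in every library of the barley cultivar Bonus and were at or near 0 in every library of the cultivar Sebastian. A gene was a member if it had at least 1 CPM in all 3 Bonus libraries and under 0.1 CPM in all 3 Sebastian libraries. CPM is a gene's count scaled to the reads counted in the tested genes of the library, with a TMM factor per library. There were 151 members among 22437 genes with enough reads to be tested, and the files list 81687 gene IDs in all. The opposite list, on in Sebastian and off in Bonus by the same limits, held 146 genes. All 151 members passed the filter on low counts, which their Bonus level alone secures. The members were chosen by their levels in Bonus and Sebastian, which are therefore a description, with no test. Between these cultivars edgeR called 9.12% of all tested genes higher and 8.44% lower in Bonus, and all 151 members among the higher ones, which the rule fixes.

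RNA-seq was carried out on the base of the young shoot, which holds the shoot apex and growing leaf bases, of barley (Hordeum vulgare) at 7 days of age, after leaf 1 had been taken off. The groups were the mutant blf13 in the Bonus background, the cultivar Bonus itself, the mutant nal1, and the cultivar Sebastian, which is the wild type of nal1. Each had 3 biological replicates of 6 pooled plants. According to the title of the series, the blf13 allele is a gain of function of barley NARROW LEAF1, whose rice counterpart regulates leaf growth. The sources used here do not give the nal1 allele, the number of lines behind each mutant, or other genetic differences between a mutant line and its cultivar.

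Cultivars of barley differ in which genes their genomes carry, in the number of copies of a gene, and in the sequence that a gene and its promoter have. A transcript can therefore be absent from one cultivar because the gene is missing, because it is silent, or because its reads no longer map to the gene model of another cultivar. Bonus is a spring barley widely used to induce mutants, and Sebastian is a spring malting barley. Morex, whose name the gene IDs carry, is another cultivar. A mutant line made in a cultivar inherits that cultivar's genes, so the 6 mutant libraries give another reading of each background that the choice of members did not use.

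Reads counted in genes ranged from 14831979 to 62995658 per library, with a median of 27400641. In Sebastian, 0.1 CPM came to 2.32, 2.79 and 6.19 reads in replicates 1, 2 and 3, so an off call rests on a handful of reads at most. In Bonus, 1 CPM came to 19.8, 27.3 and 21.5 reads in replicates 1, 2 and 3. The highest share of unmapped reads was 29.8%, in blf13 replicate 2. The files pair no names with the IDs, and 0 of them matched the reference table. Gene products, cell type markers and the level of the mutated gene were therefore not used as checks of the labels. In bulk tissue, fewer cells of a type and less RNA per cell cannot be told apart. No batch is named in the labels, so cultivar and any separate growth of the plants cannot be told apart. Whether a member is missing from the Sebastian genome or differs there in sequence was not tested.

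Summed over the 151 members, the libraries fell into a high and a low set that followed the background. The members together had 962, 974 and 1001 CPM in the 3 blf13 libraries and 1012, 916 and 1043 CPM in the 3 Bonus libraries. They had 1.68, 1.70 and 2.90 CPM in the 3 nal1 libraries and 1.25, 1.00 and 1.45 CPM in the 3 Sebastian libraries. In reads, not scaled to depth, this was 94503 in blf13, 67434 in Bonus, 138 in nal1 and 147 in Sebastian. In CPM, each nal1 library lay above each Sebastian library, and the rule capped the members in Sebastian but not in nal1. All 6 libraries of the Bonus background lay far above all 6 of the Sebastian background. The heat map of levels by library shows the same division gene by gene, except for 4 members that were off in blf13. Between Bonus and Sebastian themselves the rule fixes this division.

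**Figure D1:**
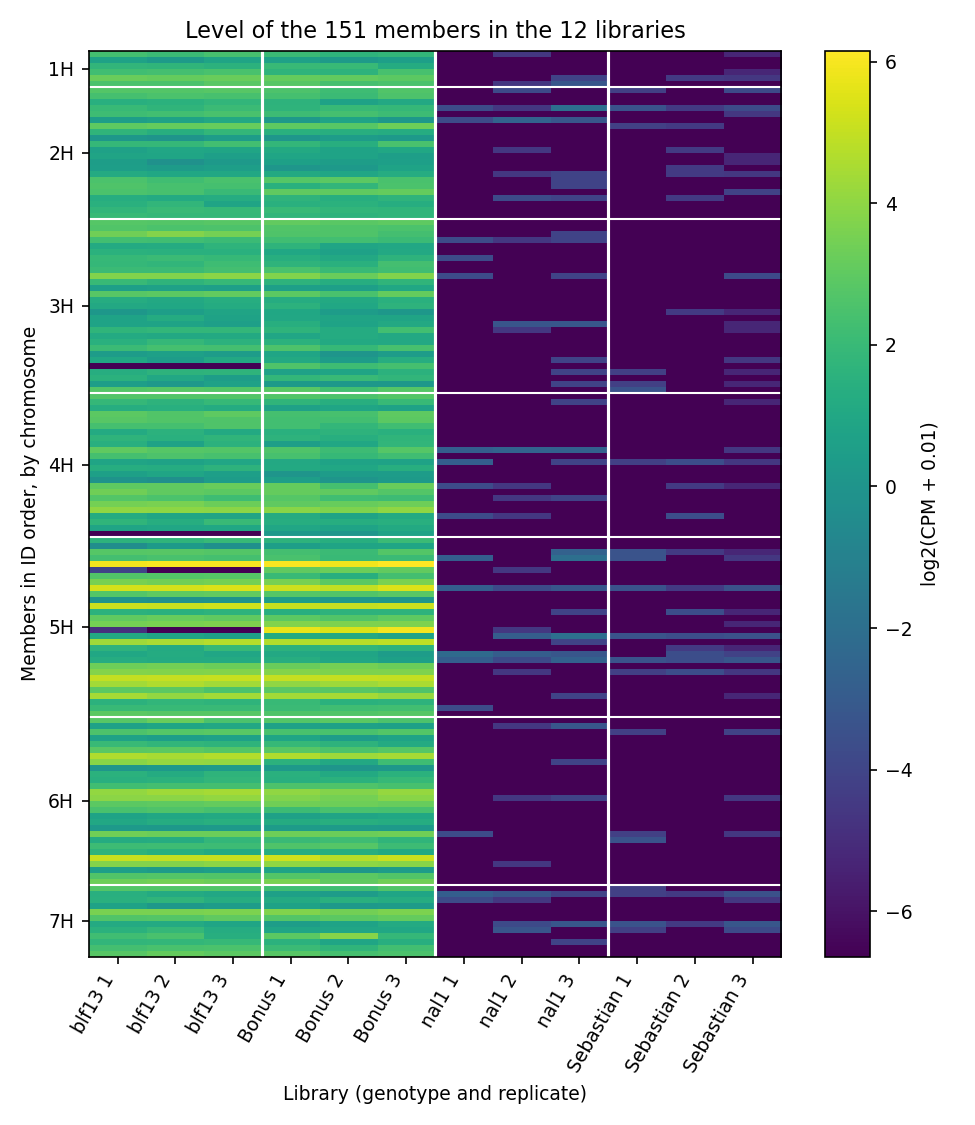
Level of each member in each library as log2(CPM + 0.01); rows are the 151 members in ID order within chromosomes, and columns are the 3 libraries of blf13, Bonus, nal1 and Sebastian. The blf13 columns look like the Bonus columns except for 4 dark rows. The nal1 columns are nearly as dark as the Sebastian columns, with values of up to 0.246 CPM in nal1.

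Most members were of low abundance. Their mean level in Bonus ran from 1.10 to 64.9 CPM with a median of 3.72 CPM, against a median of 17.2 CPM over all 17302 genes at 1 CPM or more in the 3 Bonus libraries. By class of mean Bonus level, 33 members lay under 2 CPM, 56 from 2 to 5 CPM, 40 from 5 to 10 CPM, 13 from 10 to 20 CPM and 9 from 20 to 100 CPM. No member reached 100 CPM, a level that 12.2% of genes on in Bonus reached. The off limit was the same 0.1 CPM at every Bonus level, so an abundant gene had to be lower in Sebastian by a larger factor. The rule thus leaves out abundant genes more readily, such as one on 6H with 641 CPM in Bonus and 4.22 CPM in Sebastian. The comparison of levels with all genes on in Bonus is therefore not free of the rule. CPM is not divided by gene length, so these classes order members by reads and not by transcript number.

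The member with the highest Bonus level was HORVU.MOREX.r3.5HG0440800, at rank 476 in ID order among the 3570 tested genes of chromosome 5H. It had 61.8, 64.6 and 65.1 CPM in the blf13 libraries and 64.5, 58.9 and 71.4 CPM in the Bonus libraries, and no read in any nal1 or Sebastian library. Against a floor of 3 reads summed over the 3 libraries, its level was at least 2428-fold higher in Bonus than in Sebastian. The blf13 and Bonus libraries overlapped, and both stood apart from the other two genotypes.

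The second by Bonus level, HORVU.MOREX.r3.5HG0474210, at rank 1441 on 5H, behaved differently in blf13. It had 0.0247, 0 and 0 CPM in the blf13 libraries, against 54.0, 43.9 and 61.3 CPM in the Bonus libraries. It had 1 read in nal1 and none in Sebastian. Only the Bonus libraries carried this transcript above the level of single reads.

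In Sebastian, 104 members had no read in any library, and the other 47 had between 1 and 10 reads over the 3 libraries. The members with Sebastian reads had a median Bonus level of 3.47 CPM, close to the 3.98 CPM of those without. The limits of the rule cut through a continuous range. The lowest Bonus library among members was at 1.01 CPM, and the nearest gene left out on that side was at 0.990 CPM. The highest Sebastian library among members was at 0.0970 CPM, and the nearest gene left out was at 0.107 CPM.

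The question put to the mutants was whether each keeps the state of its background cultivar. A member was called on in a mutant at 1 CPM or more in all 3 libraries, off under 0.1 CPM in all 3, and between otherwise. In blf13, 142 of the 151 members (94%) were on, 5 were between and 4 were off. In nal1, 140 members (92.7%) were off, 11 (7.28%) were between and 0 were on. Both held for 131 members, which were on in all blf13 libraries and off in all nal1 libraries. Over all tested genes, on in blf13 and off in nal1 was found for 168 genes, or 0.749%.

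The share of Bonus genes that were also on in blf13 was 98.8% over all 17302 genes on in Bonus, so the members' share lies below that background. The members are also lower in level than those genes, and what this difference has to do with the level was not tested. Of genes on in Bonus, 0.0405% (7 genes) were off in blf13, and 4 of these 7 were members. Of the 342 tested genes that were off in Sebastian, 88.6% were off in nal1 and 0.585% (2 genes) were on there. Neither of these 2 genes was a member. These shares use the Bonus and Sebastian libraries that chose the members, and no test was made of them.

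**Figure D2:**
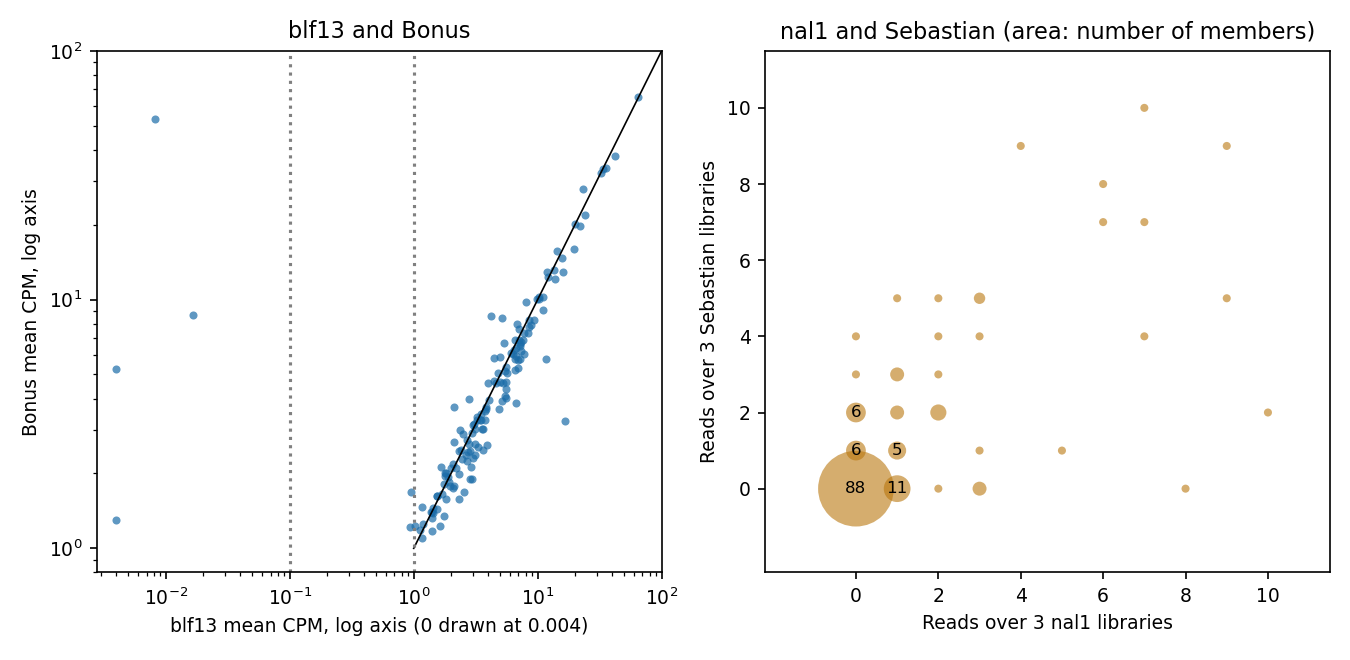
Left, mean CPM of each member in blf13 (horizontal, log axis) and in Bonus (vertical, log axis), with a line of equality and dotted lines at 0.1 and 1 CPM. Right, reads summed over the 3 nal1 and the 3 Sebastian libraries, with point area for the number of members. On the left, 144 of the 147 members not off in blf13 lie within 2-fold of the line, and 4 members lie at or below 0.1 CPM in blf13. On the right, 88 members have no read in either genotype and none has more than 10 in either.

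The difference between blf13 and nal1 was tested in the 6 mutant libraries alone, which did not enter the rule. These mutants differ in their mutation as well as in background, and the test cannot tell these apart. With edgeR's quasi-likelihood test and adjustment over all 22437 genes, 147 of the 151 members were higher in blf13 than in nal1 at an adjusted p under 0.05. The background is 16.2% of all tested genes higher and 19.5% lower in this comparison. No member was lower by edgeR or by DESeq2, and none was lower at an unadjusted p under 0.05. For the same 147 members every blf13 library lay above every nal1 library, an order found for 24% of all tested genes. The other 4 members were those off in blf13, where both mutants were at or near 0.

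The member with the smallest adjusted p in that test was HORVU.MOREX.r3.5HG0449870, at rank 754 on 5H. It had 40.7, 40.3 and 45.0 CPM in the blf13 libraries, against 0.134, 0.0631 and 0.0983 CPM in the nal1 libraries. Its log2 fold change was 8.80 (n = 3 each), with an edgeR adjusted p of 3.99e-08. With 1 library left out, the fold change ran from 8.48 to 9.02. No standard error is given, since one derived from the F statistic understates the counting error of 6 nal1 reads. This gene was read in every library, with 6 reads in nal1 and 8 in Sebastian, so its low state is a low count and not an absence of reads.

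HORVU.MOREX.r3.5HG0440800 followed, with an edgeR adjusted p of 1.40e-07. Its blf13 level of 63.9 ± 1.77 CPM (SD, n = 3) was at least 1420-fold higher than in nal1, where it had no read. Such a bound could be set for the 100 members with no nal1 read that were not off in blf13. It ran from at least 20.8-fold to at least 1420-fold higher in blf13, with a median of 87.9-fold. The bounds cover counting error only and grow with the reads of a gene, so they do not order the members by the size of the difference.

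Within the Bonus background, the level of the members as well as their state was close in the mutant and the cultivar. Among the 147 members not off in blf13, the median log2 ratio of mean CPM, blf13 over Bonus, was 0.07, and the range was −1.01 to 2.35. The ratio lay within 1.5-fold for 139 of them (94.6%), against 96.8% of the genes on in Bonus that had a read in blf13, and within 2-fold for 144. Mean levels were higher in blf13 for 94 members and higher in Bonus for 53. Over the 17298 genes on in Bonus that had a read in blf13, the median log2 ratio was −0.03. The source of this small difference from the members was not tested. Across these 147 genes, which are not independent replicates, log2 mean CPM in blf13 and Bonus had a Pearson r of 0.962. The median coefficient of variation among replicates of a member was 9.36% in blf13 and 13.9% in Bonus.

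Against Bonus, 2 members were higher and 4 were lower in blf13 at an edgeR adjusted p under 0.05. The background is 1.21% of all tested genes higher and 1.98% lower. The Bonus libraries of this comparison also chose the members, which had to be on there, so the counts are not independent of the rule. Without Bonus replicate 3, 4 members in place of 2 were higher. The plot of members that differed from Bonus shows all 6.

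Of the higher pair, HORVU.MOREX.r3.6HG0568560, at rank 761 on 6H, had 14.7, 17.5 and 17.2 CPM in the blf13 libraries, against 3.03, 2.09 and 4.60 CPM in the Bonus libraries. The groups did not overlap, and its log2 fold change was 2.36 ± 0.23 (SE, n = 3 each; edgeR adjusted p = 0.000247). HORVU.MOREX.r3.3HG0220340, at rank 67 on 3H, had 10.4, 13.6 and 11.0 CPM in the blf13 libraries, against 6.12, 6.20 and 4.97 CPM in the Bonus libraries. Every blf13 library again lay above every Bonus library. Its log2 fold change was 1.01 ± 0.16 (SE, n = 3 each; edgeR adjusted p = 0.00822). Each of these 2 genes had 1 read in nal1 and none in Sebastian.

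The 4 members lower in blf13 were the 4 that were off there. All 4 were also called with DESeq2, with cyclic loess offsets, with a replicate block and with no filter on low counts. These settings, apart from the block, added members that were reduced but not off: 1 with DESeq2, 2 with cyclic loess offsets and 3 with no filter on low counts, for 5, 6 and 7 members lower in all. HORVU.MOREX.r3.5HG0474210 had 1 read in blf13 and 3584 in Bonus, a ratio of CPM of 0.000198 with a 95% counting interval of 5.01e-06 to 0.00110 (edgeR adjusted p = 5.61e-09). HORVU.MOREX.r3.3HG0310020, at rank 2883 on 3H, had no read in blf13, against 6.12, 4.51 and 5.16 CPM in the Bonus libraries. It was at least 167-fold lower in blf13, with an edgeR adjusted p of 9.37e-05, and it had no read in nal1 or Sebastian.

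The other two were a gene on 5H at rank 491 and one on 4H at rank 2600. The 5H gene had 2 reads in blf13, both in replicate 1, against 8.04, 9.76 and 8.32 CPM in the Bonus libraries (edgeR adjusted p = 5.35e-07). The 4H gene had no read in blf13, against 1.16, 1.06 and 1.67 CPM in the Bonus libraries. It was at least 41.4-fold lower, with an edgeR adjusted p of 0.00272, and its Bonus level lay just above the limit of the rule. In all 4 of these genes, blf13 had the near-empty state of nal1 and Sebastian, with at most 2 reads in blf13, 1 in nal1 and none in Sebastian.

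**Figure D3:**
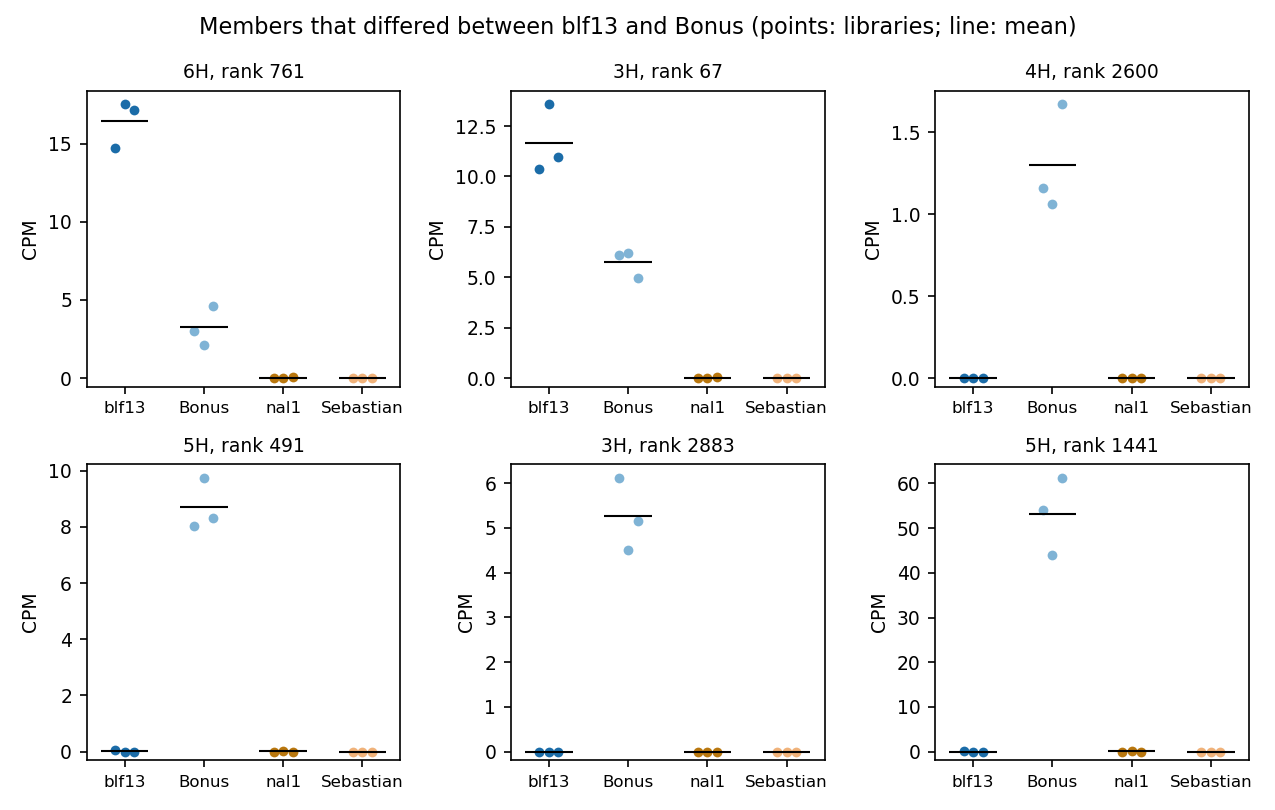
CPM in each of the 12 libraries for the 6 members that differed between blf13 and Bonus, 1 panel per gene by chromosome and rank; points are libraries and lines are means. In the 2 genes higher in blf13 the blf13 points lie above all Bonus points, and in the 4 lower genes the Bonus points alone are above the baseline.

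Genes beside these 4 were set against Bonus as well. Among the 10 nearest tested genes in ID order, 5 on each side, 1 was lower in blf13 at an edgeR adjusted p under 0.05 around the 4H gene and 1 around HORVU.MOREX.r3.5HG0474210. The first, at rank 2602 on 4H, had a log2 fold change of −1.79, and the other, at rank 1440 on 5H, had one of −0.59. The other neighbours of the 4 genes did not pass the test. Over all tested genes, 1.98% were lower, and 10 neighbours a gene are too few to set a share against it.

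The 5 members between states in blf13 all lay close to 1 CPM in Bonus as well. They were on 2H at ranks 349 and 1755, on 4H at rank 1595, and on 5H at ranks 67 and 834. Their mean level was 0.934 to 1.17 CPM in blf13 and 1.18 to 1.68 CPM in Bonus, and no blf13 library of theirs fell under 0.766 CPM. They missed the on limit by little, and none differed from Bonus at an edgeR adjusted p under 0.05. The lowest ratio of mean level, blf13 over Bonus, among members not off in blf13 was that of a gene at rank 3011 on 7H. It had 4.62, 5.51 and 2.59 CPM in the blf13 libraries, against 7.74, 14.2 and 3.72 CPM in the Bonus libraries. These ranges overlap. At each of the 3 replicate numbers blf13 was lower, but the labels do not say that equal numbers are pairs. The edgeR adjusted p was 0.21, against 0.0608 with a replicate block and 0.00203 with no filter on low counts, so the call depends on the setting.

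In the Sebastian background the members stayed near 0 in the mutant. In nal1, 102 members had no read, and the other 49 had at most 10 reads over the 3 libraries. Reads were found in both nal1 and Sebastian for 33 members, in nal1 alone for 16, in Sebastian alone for 14 and in neither for 88. Such counts are not scaled to depth, and Sebastian replicate 3 was the deepest library, with 62995658 reads in genes. The highest value of any member in a nal1 library was 0.246 CPM.

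The 11 members between states in nal1 held 75 of the 138 nal1 reads over all members, and 10 of the 11 also had reads in Sebastian. Chromosome 5H held 6 of them, 2H and 4H held 2 each, and 7H held 1. In nal1, 0.1 CPM came to 1.49, 3.17 and 2.03 reads in replicates 1, 2 and 3, so 2 reads in replicate 1 alone take a gene out of the off state.

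Against Sebastian, 2 members were higher in nal1 at an edgeR adjusted p under 0.05, beside a background of 6.12% of all tested genes higher and 5.42% lower. No member was lower by edgeR or by DESeq2, and none was lower at an unadjusted p under 0.05. A gene at under 0.1 CPM in Sebastian leaves little room to be lower, and the Sebastian libraries also chose the members. One of the higher pair, at rank 291 on 2H, had 1, 5 and 2 reads in the nal1 libraries and none in Sebastian (edgeR adjusted p = 0.0114). The other, at rank 1219 on 4H, had 2, 5 and 3 reads in the nal1 libraries, against 0, 0 and 2 reads in the Sebastian libraries (edgeR adjusted p = 0.0287). Both calls rest on a few reads. The count was 0 without nal1 replicate 2, and 1 without nal1 replicate 3, without Sebastian replicate 2 or without Sebastian replicate 3. It was also 1 with the 6 libraries of the background fitted alone, and 0 with a replicate block within each background.

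The members lay on all 7 chromosomes but in unequal numbers. Chromosome 5H held 30, 3H 29, 6H 28, 4H 24, 2H 22, 7H 12 and 1H 6. As a share of the tested genes of the chromosome, 6H was highest with 1.02% and 1H lowest with 0.212%. Chromosome 1H held 3.97% of the members and 12.6% of the tested genes, whereas 6H held 18.5% of the members and 12.2% of the tested genes. The opposite list had 21 genes on 1H and 21 on 6H, so it did not share the low number on 1H. None of the 47 tested genes without a chromosome was a member.

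The level and state of the members also varied by chromosome. The median Bonus level was 6.87 CPM on 5H and 5.43 CPM on 6H, and between 2.68 and 3.78 CPM on the other 5 chromosomes. All 28 members of 6H and all 6 of 1H were on in blf13 and off in nal1. On 5H this was so for 20 of 30 members, with 2 off and 2 between in blf13 and 6 between in nal1.

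**Figure D4:**
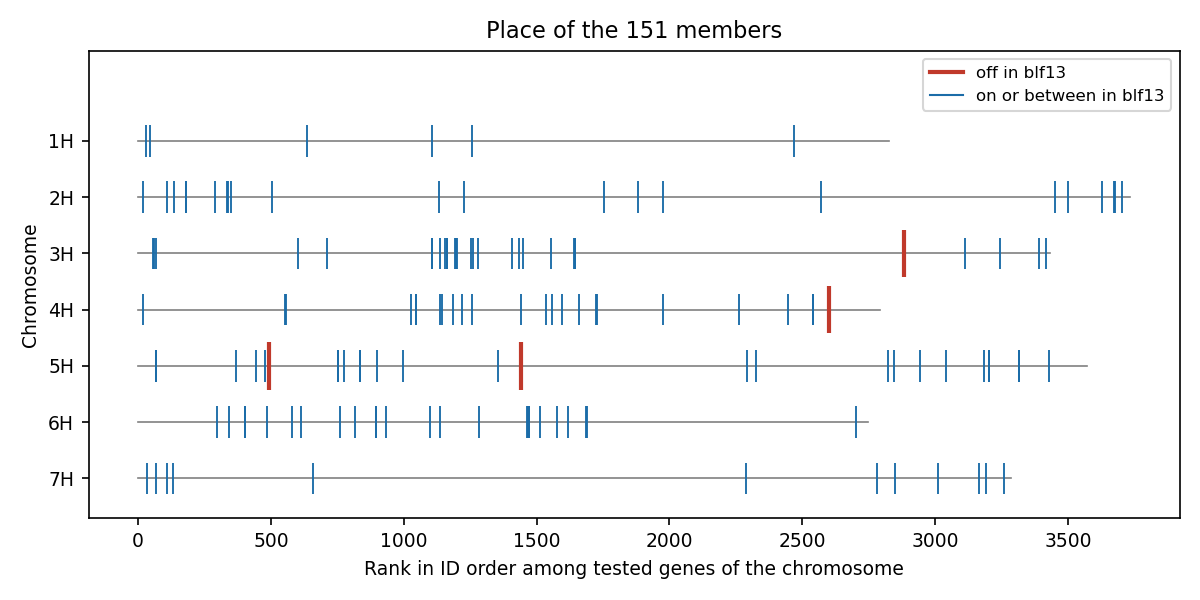
Place of the 151 members along the 7 chromosomes, as rank in ID order among the tested genes of the chromosome (horizontal); each tick is a member, and tall red ticks are the 4 members off in blf13. Ticks are dense in the middle of 3H, 4H and 6H and sparse on 1H and 7H, and the red ticks lie on 3H, 4H and 5H.

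With each chromosome cut by rank into 10 equal bins and the bins summed over chromosomes, members made up 0.939% of tested genes in bin 1 and 0.937% in bin 10. They made up 0.983% in bin 4 and 0.134%, or 3 of 2241 genes, in bin 8. The densest span of 50 tested genes on any chromosome was on 6H, from rank 1465, with 8 members. The next was on 3H, where 6 members lay between ranks 1157 and 1202.

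Members often had another member close by. Of the 151, 59 (39.1%) had one within 10 tested genes, which was so of 10.6% of all tested genes. A gene of the opposite list lay within 10 tested genes of 27 members (17.9%), beside 10% of all tested genes. Members with consecutive ranks among tested genes formed 14 runs that held 35 members (23.2%). There were 9 runs of 2, 3 runs of 3 and 2 runs of 4. The longest run held 7 members when up to 2 tested genes, or up to 10 IDs, were allowed between neighbours. In 10 of the 14 runs the members were consecutive among all IDs of the files too, so no untested ID lay between them. The opposite list formed 20 runs with 43 of its genes (29.5%) and a longest run of 4. Ranks follow the ID order and are not distances in bases, and neighbours can be copies of one gene, which was not tested.

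The run of 4 on 5H covered ranks 3201 to 3204. Its first gene had 31.5, 32.3 and 33.4 CPM in the blf13 libraries and 32.7, 32.2 and 32.0 CPM in the Bonus libraries, and no read in nal1 or Sebastian. Mean levels of the other 3 genes, in order, were 21.9, 7.05 and 19.8 CPM in blf13 and 19.7, 6.89 and 20.1 CPM in Bonus. Over the 4 genes, nal1 and Sebastian had 1 read each, both in the last gene.

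The tested genes on either side of this run were read in all genotypes. The gene before it had 18.9, 17.8 and 17.9 CPM in the blf13 libraries and 19.6, 20.8 and 19.6 CPM in the Bonus libraries, and it averaged 17.6 CPM in nal1 and 17.5 CPM in Sebastian. The gene after it averaged 6.06 CPM in blf13, 6.37 CPM in Bonus, 10.7 CPM in nal1 and 10.4 CPM in Sebastian. A few ranks on, at 3209, lay a gene of the opposite state, with at most 0.04 CPM in any blf13 or Bonus library and 2.21 to 2.85 CPM in the nal1 and Sebastian libraries.

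The run of 4 on 6H, at ranks 1465 to 1468, was followed by a run of 3 at ranks 1471 to 1473. In the first, mean levels were 5.70, 1.97, 2.40 and 1.19 CPM in blf13 and 5.06, 1.78, 2.48 and 1.26 CPM in Bonus, with no read in nal1 or Sebastian. In the second, they were 9.91, 2.77 and 4.46 CPM in blf13 and 10.1, 3.99 and 5.81 CPM in Bonus, and at most 0.0287 CPM in nal1 or Sebastian. Members of both runs were on in all blf13 libraries and off in all nal1 libraries.

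The genes between and beside these 2 runs had the same direction and missed the rule on one limit. Ranks 1469, 1470 and 1474 averaged 0.945, 0.893 and 0.217 CPM in blf13 and 0.543, 1.02 and 0.507 CPM in Bonus, with no read in nal1 or Sebastian. Rank 1464 averaged 16.4 CPM in blf13, 37.4 CPM in Bonus, 0.637 CPM in nal1 and 0.302 CPM in Sebastian. Rank 1475 averaged 533 CPM in blf13, 641 CPM in Bonus, 9.73 CPM in nal1 and 4.22 CPM in Sebastian. From rank 1464 to 1475, every gene was thus higher in all libraries of the Bonus background than in any of the Sebastian background. The extent of this stretch was set after its values were seen, and it is given as a description only.

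Beyond the stretch every gene examined was read in all 4 genotypes, as ranks 1464 and 1475 within it also were. Differences beyond it went in both directions. The gene at rank 1476 averaged 16.2 CPM in blf13, 17.8 CPM in Bonus, 14.0 CPM in nal1 and 13.8 CPM in Sebastian, and the libraries of the backgrounds still did not overlap. The Bonus background was the higher one at rank 1476 too, so this order alone does not set the end of the stretch. Rank 1477 averaged 3.38 CPM in blf13, 3.17 CPM in Bonus, 5.68 CPM in nal1 and 5.35 CPM in Sebastian, which is the opposite order. Rank 1479 averaged 17.3 CPM in blf13, 17.3 CPM in Bonus, 7.53 CPM in nal1 and 9.11 CPM in Sebastian, again with no overlap between backgrounds. The gene before the stretch, at rank 1463, averaged 0.818 CPM in blf13, 0.458 CPM in Bonus, 1.04 CPM in nal1 and 0.868 CPM in Sebastian, and its libraries overlapped between backgrounds.

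**Figure D5:**
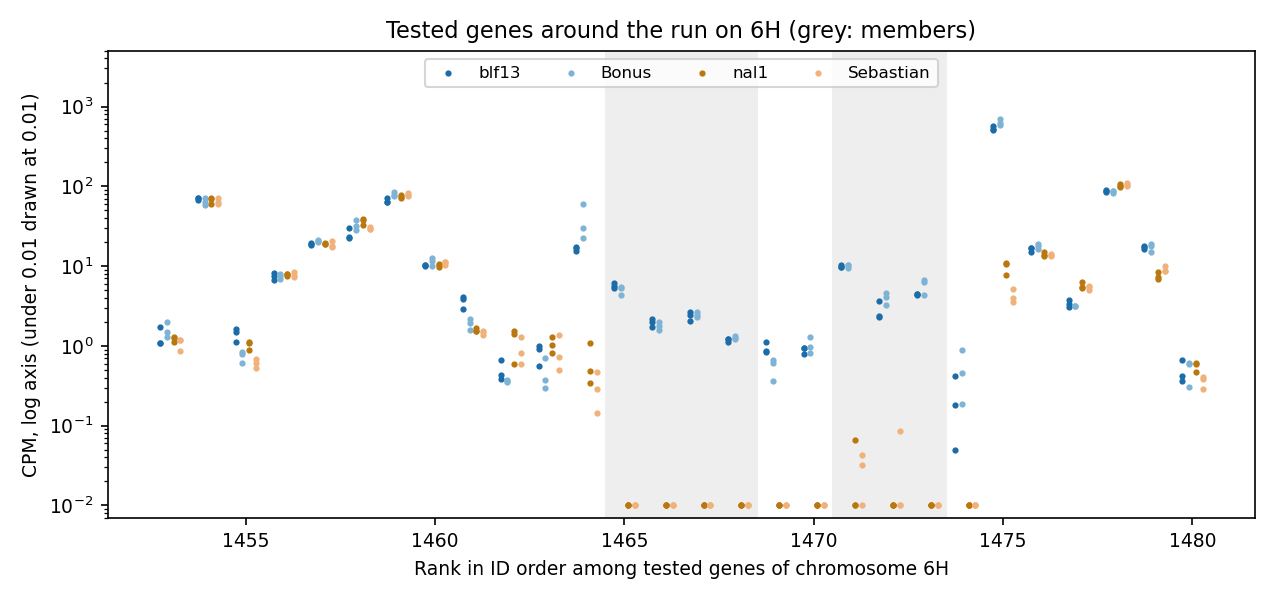
CPM (log axis) of tested genes around the run of 4 on chromosome 6H by rank in ID order; points are single libraries of blf13, Bonus, nal1 and Sebastian, and grey bands mark members. From rank 1464 to 1475 the blf13 and Bonus points lie above the nal1 and Sebastian points, many of which are at 0. Every gene drawn outside this stretch was read in all 4 genotypes, as were ranks 1464 and 1475.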

How the data were processed

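RNA-seq libraries were sequenced from 12 pools of 6 plants, and the authors deposited raw read counts per gene for each. The submitters' processing notes name STAR 2.7.3a, while build, trimming and filters were not given in the sources used here. Use was made of the column counted without regard to strand, and the library kit named in the labels does not mark strand. The 4 summary lines of each file, which held 15.7% to 37.9% of reads, entered neither library sizes nor tests. Reads that map to several places are counted for no gene in this layout, so near-identical copies are undercounted, and reads of overlapping antisense genes cannot be separated.

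CPM values were computed here with TMM library sizes after filterByExpr by genotype (edgeR 4.0.16, R 4.3.3). The members and lists were chosen with earlier results of these data known. blf13 minus nal1 was fitted to the 6 mutant libraries, and the other contrasts to all 12 libraries with 1 coefficient per genotype, by edgeR's quasi-likelihood F test with Benjamini-Hochberg adjustment over 22437 genes. Standard errors were derived from the F statistic. Bounds use a floor of 3 counts over the 3 libraries of a genotype, and intervals cover counting error only. The p-values measure the spread between pools. The test was checked on simulated counts.

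At most 2 IDs per direction and comparison are named. For Bonus and Sebastian they have the highest Bonus CPM, and for blf13 minus nal1 the smallest adjusted p. For each mutant against its cultivar they have the largest fold change among members with an adjusted p under 0.05, libraries that do not overlap and a mean of 1 CPM or more in the higher group, which named none for nal1. Members given by rank were chosen after their values were seen.

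Replicate pairs differed by 3.98 to 11.8 times the sampling noise (chi-square per degree of freedom), so none was a duplicate. Deviations from genotype means correlated for equal replicate numbers of blf13 and Bonus with r of 0.219, 0.315 and 0.213. The r was −0.0997, −0.0408 and 0.11 for nal1 and Sebastian and −0.267, 0.0464 and −0.0394 for blf13 and nal1. The labels do not say whether equal numbers are pairs, and these values alone do not settle it. The printed values come from the fit without a block. Alternatives were DESeq2 1.42.0, other scalings and limits, no filter, a replicate block and leaving out libraries. No sequences are printed, since the IDs were matched to none.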

Additional observations from a re-analysis of the deposited data

Results flagged for a closer look

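One member gained reads in data that the comparisons do not use. For the gene at rank 368 on 5H, the sum of both strand columns was 1.47 times the count made without regard to strand over the 3 Bonus libraries, which that count put at 359 reads. The extra reads numbered 305 in blf13 and 168 in Bonus, and 0 in nal1 and 2 in Sebastian. It was the 1 member whose sum was at least 1.2 times the count used, by over 3 reads, in every Bonus library. The source of these reads was not tested.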

How the results depend on the processing

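The number of members, 151, moved with the limits of the rule: to 221 with on at 0.5 CPM, 105 with on at 2 CPM, 133 with off under 0.05 CPM, 175 with off under 0.2 CPM and 104 with no Sebastian read allowed. It was 151 with RLE size factors, 151 without a filter, 146 with library totals, 152 with both strands summed, and 155 to 164 with 1 Bonus or Sebastian library left out. Members higher in blf13 than in nal1 numbered 147 under every alternative run. The longest run reached 7 with up to 2 tested genes or up to 10 IDs between neighbours. Members lower in blf13 than in Bonus numbered 4 to 5 with 1 library left out and 7 without a filter, and members higher 2 to 4. Members higher in nal1 than in Sebastian (2) numbered 0 to 2 with 1 library left out and 1 with the 6 libraries of the background alone. A replicate block on all libraries left the counts at 147 higher for blf13 minus nal1, 2 higher and 4 lower for blf13 minus Bonus, and 2 higher for nal1 minus Sebastian. A replicate block within each background, an alternative chosen after seeing the data, gave 0 higher for nal1 minus Sebastian and, for blf13 minus Bonus, the same 2 higher and 4 lower members; it was not run for blf13 minus nal1. Leaving out 1 library kept 142 to 144 members on in blf13, 140 to 143 off in nal1 and 131 to 134 both. No direction reversed. Depth limits the off state, which 1 to 6 reads per library decide, and the cause of these changes was not tested.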
